A study of Mus musculus with 4 samples.

Results

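The 39 genes described here belong to the ATF4 and unfolded protein response programmes, and they were chosen by symbol, by what they are known to do. No measured value is in the rule that lists them, but earlier results of these data were known when the 39 were chosen. Of these, 38 had a probe set with a single gene symbol in the platform annotation, out of 18193 such genes on the array, and each was read from the probe set that was brightest on average. Pycr1 had no such probe set and is not analysed here. RNA came from tumours of iNRAS-475, which is 1 line of mouse melanoma cells whose NRAS, a small GTPase upstream of the ERK kinases, is switched on by doxycycline. All tumours were grown in the dermis of nude mice that drank water with 2 mg/ml doxycycline. The 4 groups were a tumour kept on the drug, the control, and tumours collected 24, 48 and 72 h after the drug was stopped, with 1 Affymetrix array in each, so no value has a replicate error and no difference was tested. Tumours had reached 200 to 500 mm3 after 6 weeks. Nude mice lack a thymus and most T cells but keep macrophages, fibroblasts and other host cells, which a tumour piece also holds. The control differs from the other groups both in NRAS and in the presence of the drug, and no tumour without the transgene is among the samples, so NRAS, the drug, the animal and the tumour piece cannot be told apart.

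ATF4 is a transcription factor whose protein is made when the initiation factor eIF2 is phosphorylated, as happens when amino acids run short or the endoplasmic reticulum (ER) is overloaded. It switches on enzymes that make asparagine, serine, glycine and proline, the transporters that bring amino acids into the cell, and a set of regulators that limit or prolong the response. The unfolded protein response has other arms as well, in which ATF6 and the spliced form of XBP1 switch on chaperones and folding enzymes of the ER. The members were therefore read in 4 roles: 8 enzymes of amino acid and folate metabolism, 7 amino acid transporters, 11 stress regulators, and 12 genes of the ER chaperone list, which holds chaperones, folding enzymes, degradation factors and Xbp1.

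The promoters of some members carry the elements these factors are known to bind, and those of 6 members whose values differed in different ways are shown because they let the ATF4 and ER groups be compared by sequence. RefSeq promoters (GRCm38.p6) were matched for 35 of the 39 members by symbol, and the 250 bases before the annotated start were searched on both strands. The C/EBP-ATF response element was searched as TGATGNAA and the ER stress element as CCAAT and CCACG separated by any 9 bases. Capitals mark the fixed letters of each match, on whichever strand it lies, and each stretch begins 25 bases before its first match and ends at the last base before the start.
Asns, chr6:7693210-7693257, minus strand: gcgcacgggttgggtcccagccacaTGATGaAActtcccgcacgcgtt
Chac1, chr2:119351024-119351241, plus strand: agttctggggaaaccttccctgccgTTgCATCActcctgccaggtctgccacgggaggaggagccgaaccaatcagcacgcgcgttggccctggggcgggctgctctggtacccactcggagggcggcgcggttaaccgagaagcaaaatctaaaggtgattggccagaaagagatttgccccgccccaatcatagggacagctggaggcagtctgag
Atf3, chr1:191183334-191183468, minus strand: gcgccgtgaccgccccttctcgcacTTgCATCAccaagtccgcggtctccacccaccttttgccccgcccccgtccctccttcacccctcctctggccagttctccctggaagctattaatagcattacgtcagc
Hspa5, chr2:34772000-34772089, plus strand: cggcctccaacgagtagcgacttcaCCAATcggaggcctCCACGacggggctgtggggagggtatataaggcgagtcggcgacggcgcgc
Pdia6, chr12:17266466-17266588, plus strand: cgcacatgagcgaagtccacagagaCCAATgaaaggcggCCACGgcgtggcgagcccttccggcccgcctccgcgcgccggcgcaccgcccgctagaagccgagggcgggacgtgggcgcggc
Hsp90b1, chr10:86705445-86705681, minus strand: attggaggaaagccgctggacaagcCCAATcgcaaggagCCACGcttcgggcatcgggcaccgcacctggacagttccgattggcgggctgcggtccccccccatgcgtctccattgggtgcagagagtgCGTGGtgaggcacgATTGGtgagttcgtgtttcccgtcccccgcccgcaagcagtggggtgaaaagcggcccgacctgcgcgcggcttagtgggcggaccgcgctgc

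The ER stress element was present in 5 of the 11 ER chaperone list members with a promoter (Creld2, Dnajc3, Hsp90b1, Hspa5 and Pdia6), in 0 of 14 enzymes and transporters and in 0 of 10 stress regulators, against 0.130% of 27025 genes. The C/EBP-ATF element was present in 3 of the 14 enzymes and transporters (Asns, Pycr1 and Slc7a11), in 2 of the 10 regulators (Atf3 and Chac1) and in 1 of the 11 ER chaperone list members (Herpud1), against 3.91% of all genes. Another element of the unfolded protein response, TGACGTGG, was in none of these members' windows and in 0.603% of all genes. A match describes the letters in this window only. Members with the same element did not have the same values: Asns and Chac1 were lower late after withdrawal and Atf3 was higher.

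Intensities are processed values on a linear scale, with array medians of 33.4 on the control and 33.3, 34.0 and 33.8 at 24, 48 and 72 h. Differences are off minus on doxycycline on the scale log2(intensity + 32), which understates differences of dim genes, and 2-fold means a difference of at least 1. Shares of all genes are over the 13522 genes whose mean intensity reached 24.9, the 40th percentile of probe sets, and their median difference was 0.00 at each time. Of the 38 members 37 reached that level; the cystine transporter Slc7a11 did not. At 72 h the summed markers of some host cell types were higher. The summed intensity of 8 skeletal muscle genes was 284, 569.5, 255 and 4571 over the control, 24, 48 and 72 h arrays. That of 6 fibroblast genes was 12172, 12315, 26730 and 48870, and that of 9 macrophage genes 5050.1, 9122, 7443 and 13753. Of these lists 8, 5 and 6 genes were 2-fold higher at 72 h, and 0, 3 and 2 at 48 h. Fat cell markers, 4 genes, summed to 371, 182, 481 and 1698, of which Fabp4 read 203, 70.8, 323 and 1234. The fibroblast sum at 72 h was mostly Col1a1, at 18005, and Col3a1, at 19970. Pdgfra of that list was lower, at 404 on the control and 262 at 72 h. Neutrophil, keratinocyte and erythroid markers summed to 129, 200 and 73.5 on the control and to 126, 206 and 76.0 at 72 h. Sox10, a transcription factor of the melanocyte lineage, read 3771, 3613, 4681 and 3844 over the same arrays, and S100b, another marker of that lineage, read 362, 327, 724 and 575. Of the other melanocyte markers, Pmel read 73.1, 49.8, 103 and 199.7 and Mitf 50.3, 56.5, 93.1 and 115, both highest at 72 h, Dct was at 34.7 or below and Tyr, Mlana and Tyrp1 were at 25.2 or below on every array. In a whole tumour, fewer cells of a type and less RNA per cell cannot be told apart.

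At 24 h off doxycycline the members lay close to the control. In number, 21 of the 38 were below it and 17 above, against 43.0% of all genes below, and the differences ran from -0.39 (Eif4ebp1) to 0.40. None was 2-fold lower or higher, where 0.0666% and 0.266% of all genes were. Several enzymes were somewhat brighter at 24 h than on any other array, among them Asns, Psat1 and Psph.

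At 48 h most members were lower. Below the control lay 34 of 38, against 45.5% of all genes, and 12 were 2-fold lower, against 1.04% of all genes. One member, Ddit4, was 2-fold higher, against 0.754% of all genes. At 72 h 32 of 38 were below the control, against 43.7% of all genes; 9 were 2-fold lower, against 1.63%, and 1, Atf3, was 2-fold higher, against 2.29%. The medians over all 38 measured members were -0.03, -0.71 and -0.67 at 24, 48 and 72 h, beside 0.00 for all genes.

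**Figure D1:**
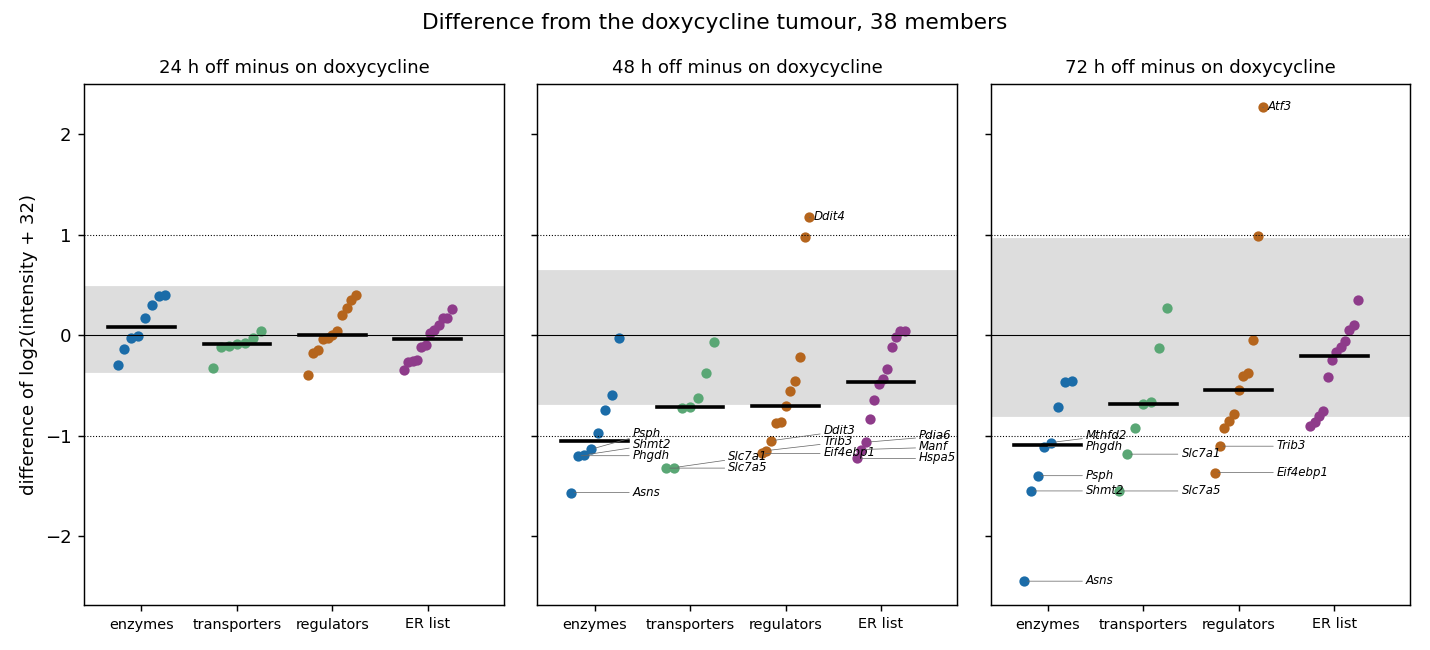
Each point is a member, grouped by role on the horizontal axis, and the vertical axis is the difference of log2(intensity + 32) from the control tumour at 24, 48 and 72 h; black bars are medians, dotted lines mark 2-fold and the grey band holds 95% of all genes. Points are near 0 at 24 h, and at 48 and 72 h the enzymes, transporters (except Slc1a5 at 72 h) and most regulators lie below 0, with medians of -1.05 and -1.09 for the enzymes and -0.46 and -0.20 for the ER list, while Atf3 (2.27 at 72 h) and Ddit4 (1.17 at 48 h) lie above.

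The enzymes of asparagine, serine and folate metabolism had the lowest median of the 4 roles at 48 and 72 h. Asns (probe set 1451095_at), the enzyme that makes asparagine, had intensities of 993, 1228, 314 and 156 on the control, 24, 48 and 72 h arrays, differences of 0.30, -1.57 and -2.45. Its level at 72 h was 15.7% of the control's, the lowest percentage among the 38 members, and the other Asns probe set went from 447 to 574, 91.7 and 34.1. So both probe sets were high on the first pair of arrays and stepped down at each later time.

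Serine is made by Phgdh, Psat1 and Psph acting in turn. Phgdh, which catalyses the first and committed step, read 1046, 1023, 437 and 467 over the control, 24, 48 and 72 h arrays, and its 3 other probe sets had differences from -1.66 to -0.92 at 48 h and from -1.90 to -0.70 at 72 h. Every Phgdh probe set is of a kind that may match several transcripts (_x_at), so the alternative without that kind holds no Phgdh value. Psat1, the aminotransferase of the pathway, read 519, 695, 333 and 304, a smaller difference of -0.71 at 72 h. Psph, the final phosphatase, read 227, 307, 86.0 and 66.2. All 3 were lower at 48 and 72 h than on either earlier array.

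Of the folate enzymes, Shmt2, which turns serine into glycine in mitochondria and frees a carbon unit, read 352, 280, 136 and 99.1, with a difference of -1.55 at 72 h. Its 3 other probe sets ranged from -1.45 to -0.17 at 72 h, and the mean over all 4 was -0.91, short of 2-fold. Mthfd2, which processes that unit in mitochondria, read 217, 194, 94.6 and 86.6, and its other probe set went from 178 to 149, 26.7 and 20.7. Its difference at 72 h was therefore -1.07 by one probe set and -1.99 by the other. Mthfd1l, which releases the unit as formate, differed little at 48 h, with 407, 463, 399 and 285 over the 4 arrays. Aldh18a1, which starts proline synthesis, read 189, 188, 99.9 and 129, and its other 3 probe sets above the level filter had differences between -0.42 and -0.21 at 72 h. The enzymes' median differences were 0.09, -1.05 and -1.09 at 24, 48 and 72 h. At both later times 8 of 8 were below the control, against 45.5% and 43.7% of all genes. Of the 8 enzymes 4 and then 5 were 2-fold lower, against 1.04% and 1.63% of all genes.

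Among the transporters, Slc7a5, the light chain that carries large neutral amino acids, read 435, 412, 155 and 127, and Slc7a1, which carries arginine and lysine, read 268, 208, 88.5 and 100.2. By these probe sets both were 2-fold lower at 48 and at 72 h, and no other transporter was. For Slc7a1 a second probe set lay at -0.87 and -0.83, and the mean over its 3 probe sets, a dim one included, at -0.71 and -0.67, short of 2-fold. The heavy chain Slc3a2, the partner of Slc7a5 at the cell surface, read 772, 727, 453 and 476, a smaller difference than that of its light chain (-0.73 against -1.32 at 48 h). The glycine transporter Slc6a9 read 466, 428, 271 and 231, although another Slc6a9 probe set lay at only -0.28 at 72 h. The neutral amino acid carrier Slc1a4 lay at -0.63 at 48 h and at -0.68 at 72 h.

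The glutamine carrier Slc1a5 departed from the other transporters at 72 h. It read 153, 149, 111 and 191 over the 4 arrays, and at 72 h it alone of the 15 enzymes and transporters lay above the control, by 0.27. A dimmer Slc1a5 probe set stood at 71.6 on the first 3 arrays and at 67.9 at 72 h. Slc7a11, below the level filter, lay between 12.5 and 18.1 on the 4 arrays. The transporters' medians were -0.08, -0.72 and -0.68 at 24, 48 and 72 h.

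Among the stress regulators, Atf4 itself (probe set 1448135_at) read 3660.2, 3674, 1999.8 and 1919.5. By this probe set it was level over the first pair of arrays and at 54.6% and 52.4% of the control on the later pair. A second Atf4 probe set read 578, 709, 281 and 331, and a dim one 49.5, 18.7, 18.6 and 22.7. At 24 h these lay above and below the control, by 0.28 and -0.68. The related factor Atf5 read 632, 768, 330.1 and 336, also lower on the later pair, but brighter at 24 h than on the control, by 0.27. These are RNA levels; the ATF4 protein, which is set mostly by translation, was not measured.

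Genes that ATF4 is known to activate differed in direction. Trib3, a pseudokinase that feeds back on ATF4, read 168, 162, 58.1 and 60.9, and Chac1, which breaks down glutathione, read 117, 165, 59.6 and 54.7. Eif4ebp1, which holds back cap-dependent translation, read 788, 592, 331 and 286 and was the lowest regulator at 72 h, with a difference of -1.37. Ddit3, the factor also called CHOP, read 433, 379, 193 and 287, lowest at 48 h. As means over each gene's probe sets, dim ones included, the differences at 48 h were -0.51 for Ddit3, -0.74 for Trib3 and -0.87 for Eif4ebp1, all short of 2-fold. Cebpb and Cebpg, partners of ATF4 on DNA, had smaller differences, -0.55 and -0.45 at 48 h and -0.41 and -0.38 at 72 h. Ppp1r15a, which directs the phosphatase that resets eIF2, was near the control, at 232, 271, 195 and 224.

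Atf3 and Ddit4 were the 2 regulators above the control at 48 and 72 h. Atf3 (probe set 1449363_at), a stress-induced factor that can be switched on by ATF4 and by other routes, read 118, 115, 264 and 692, a difference of 2.27 at 72 h and of 1.29 between 48 and 72 h. Ddit4, an inhibitor of mTORC1 that also responds to hypoxia and glucocorticoids, read 236, 244, 572 and 499. Each is represented by a single probe set. Immediate early genes mark tissue handling as well as signalling. Of 10 such genes, 6 were below the control at 48 h and 9 at 72 h, against 45.5% and 43.7% of all genes. All 10 were lower at 72 h than at 48 h, where 47.1% of all genes were higher. The parts of handling and of signalling in these values and in the Atf3 value were not tested. Egr1 lay at -0.89 at 48 h and at -0.93 at 72 h, and Jun, a partner of ATF3, read 963, 939, 1971 and 1456. The summed muscle, fat cell, fibroblast and macrophage markers were highest on the same 72 h array as Atf3, and their part in its value was not tested. The regulators' medians were 0.01, -0.70 and -0.54, with 3 of 11 2-fold lower at 48 h and 2 at 72 h, against 1.04% and 1.63% of all genes.

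**Figure D2:**
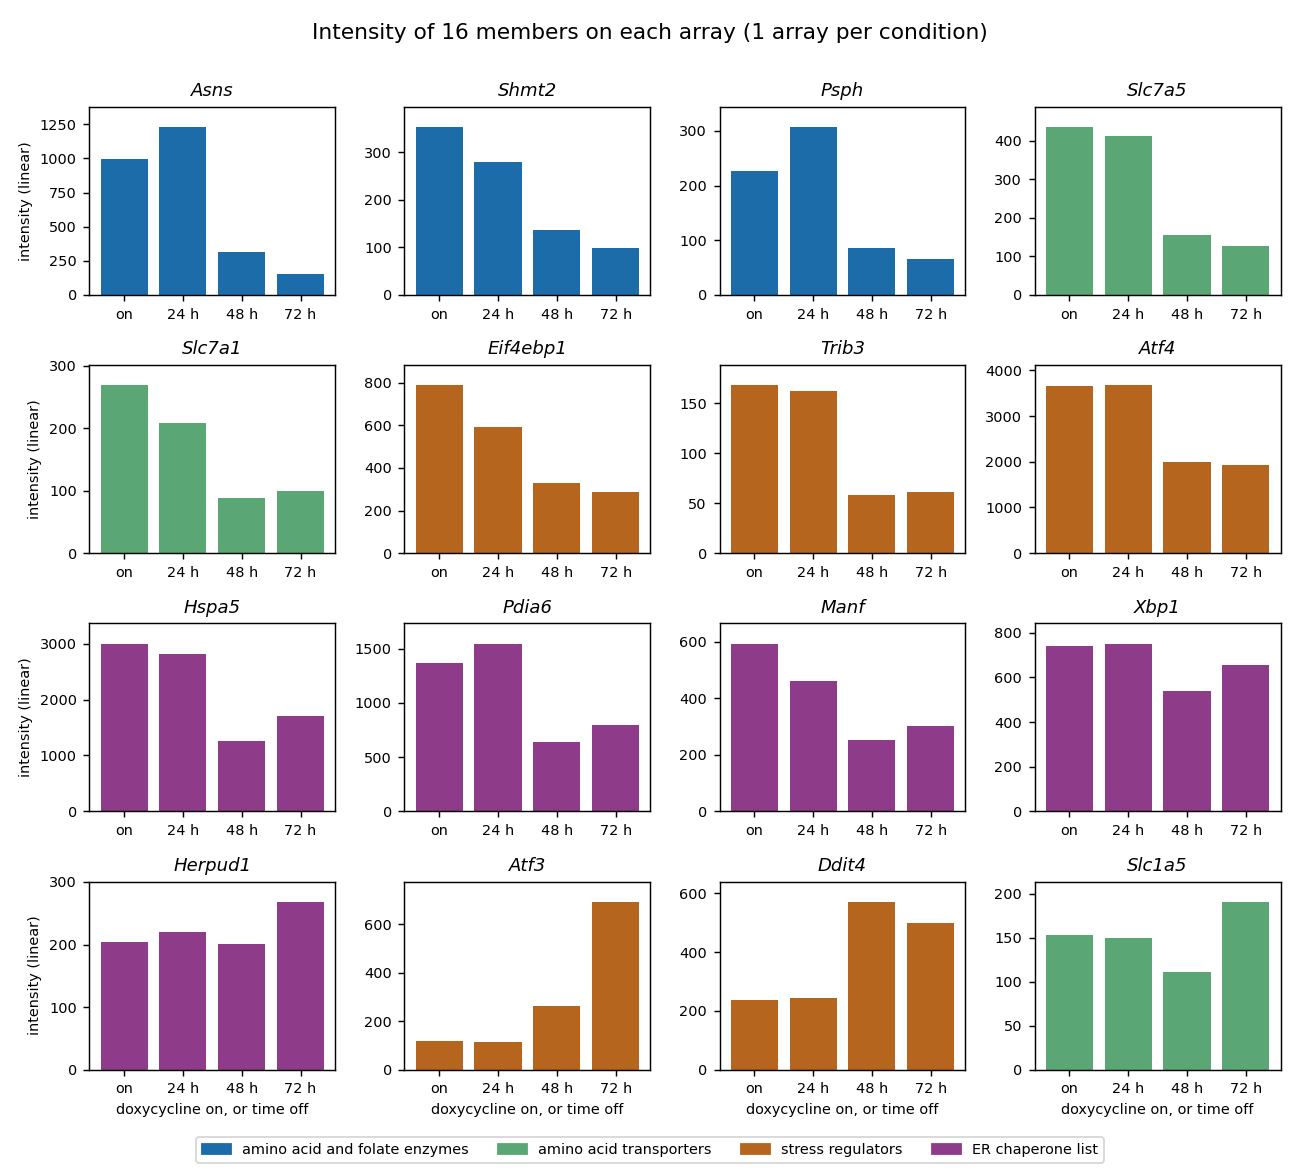
Bars give the intensity, on a linear axis that starts at 0, of 16 members on the control array (on) and at 24, 48 and 72 h off doxycycline; colours mark the role and each bar is 1 array. Asns steps down from 1228 at 24 h to 156 at 72 h, Hspa5 is lowest at 48 h (1264) and higher at 72 h (1707), and Atf3 is highest at 72 h (692).

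The ER chaperone list was lower at 48 h than on the control, with a median nearer 0 than that of the enzymes, and most of its members were brighter again at 72 h. Hspa5 (probe set 1416064_a_at), the chaperone BiP that also holds the stress sensors inactive, read 3003, 2811, 1264 and 1707. A second Hspa5 probe set had differences of -1.16 at 48 h and -0.83 at 72 h, whereas the remaining one was slightly above the control, at 0.12 and 0.21. Pdia6, a disulfide isomerase, read 1372, 1547, 638 and 798, and Manf, a secreted ER protein, read 594, 460.2, 252 and 302. These 3 were 2-fold lower at 48 h and none of the 12 was at 72 h, against 1.04% and 1.63% of all genes. As means over all probe sets of the gene, Hspa5 and Pdia6 were short of 2-fold at 48 h, at -0.75 and -0.55.

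Hsp90b1, the ER form of HSP90, read 1039, 1171, 654 and 773, although its other probe set was lowest at 72 h. Creld2, a secreted ER stress protein, read 303, 245, 155 and 152, and it stayed at 50.2% of the control at 72 h. The isomerase Pdia4, the cofactor Sdf2l1 and Xbp1 had smaller differences, -0.34, -0.49 and -0.44 at 48 h and -0.11, -0.24 and -0.17 at 72 h. Xbp1, the factor whose mRNA is spliced by the sensor IRE1, read 741, 752, 539 and 658, and its 3 other probe sets were also lowest at 48 h. The array does not separate spliced from unspliced Xbp1 in these values.

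The degradation and co-chaperone genes of the list were near the control. Herpud1, which acts in ER-associated degradation, read 203, 221, 200.1 and 268. Edem1, which marks misfolded glycoproteins, stayed between 209 and 217. Dnajb9 and Dnajc3, co-chaperones of BiP, lay between 323 and 412 and between 307 and 364. Among the 12 genes 10 were below the control at 48 h and 9 at 72 h, against 45.5% and 43.7% of all genes. The list's medians were -0.04, -0.46 and -0.20 at 24, 48 and 72 h. Edem1 and Sdf2l1 had equal values on the 24 and 72 h arrays.

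The 15 enzymes and transporters were further below the control than the ER chaperone list at 48 and 72 h. Their medians were -0.03, -0.74 and -0.92, which differed from those of the ER list by 0.01, -0.28 and -0.72 at 24, 48 and 72 h. Of the 15, 6 were 2-fold lower at 48 h and 7 at 72 h, against 3 and 0 of the 12 ER genes and 1.04% and 1.63% of all genes. With a pseudocount 4 times as large, which shrinks differences further, these counts were 2 and 3 against 1 and 0. Each gene's intensity at 72 h was taken as a percentage of its own on the control, and the median of these was 49.5% for the enzymes and transporters and 84.7% for the ER list. Genes are not replicates, so these are descriptions of 4 tumours.

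The step from 48 to 72 h leaves the control array out. Of the ER chaperone list 10 of 12 were higher at 72 h than at 48 h, as were 5 of the 15 enzymes and transporters and 7 of the 11 regulators, against 47.1% of all genes. The ER list's median step was 0.23 and that of the enzymes and transporters -0.09. Because the step and the difference at 48 h both use the 48 h array, the low values at 48 h and the higher ones at 72 h are not independent, and 8 of the 12 ER genes had their lowest value on that array. From 24 to 72 h, which uses neither the control nor the 48 h array, 6 of the 15 enzymes and transporters, 3 of 11 regulators and 0 of 12 ER genes were 2-fold lower, against 1.85% of all genes, and 1 member, Atf3, was 2-fold higher, against 1.97%. Asns had the lowest step from 24 to 72 h, -2.75.

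**Figure D3:**
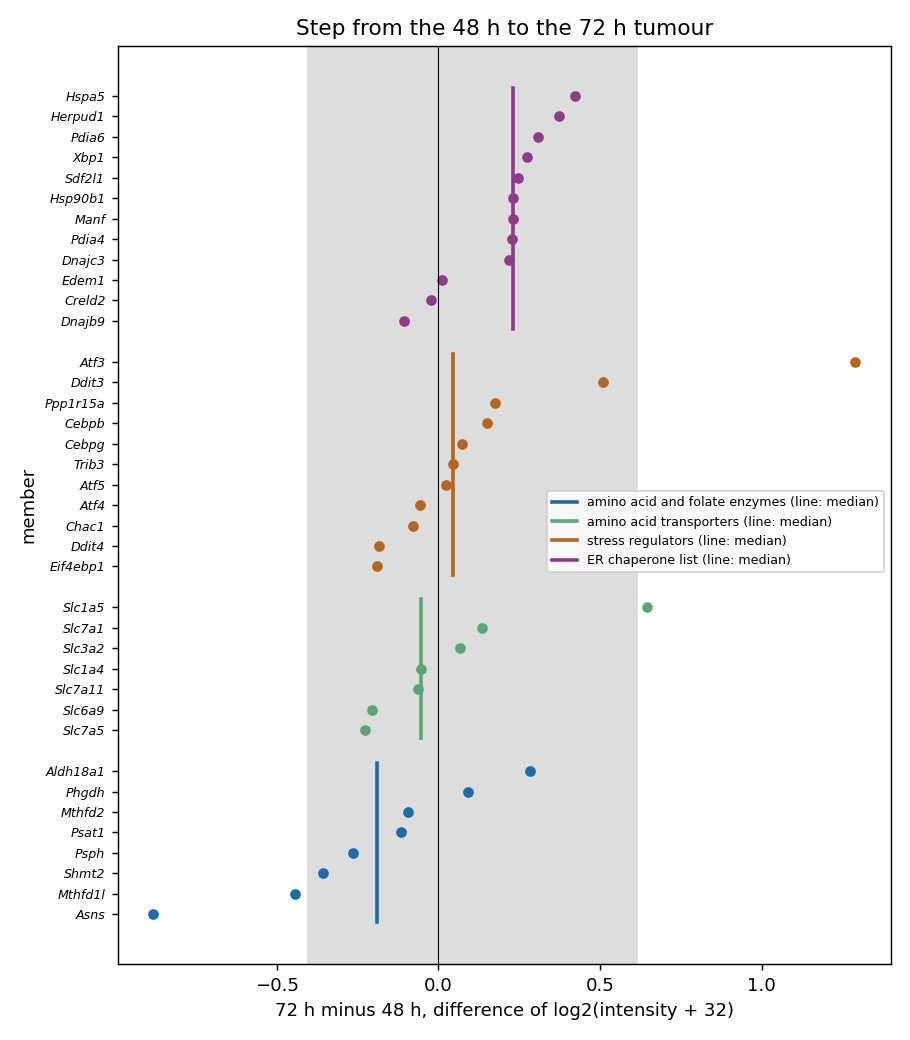
Each point is a member, in rows grouped by role, and the horizontal axis is the 72 h minus the 48 h value of log2(intensity + 32); coloured lines are the medians of the roles and the grey band holds 95% of all genes. Most ER genes lie to the right of 0, around their median of 0.23, Asns lies furthest left at -0.88 and Atf3 furthest right at 1.29.

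Host cell markers differed between these arrays, and their part in the results was not tested. On the 48 h array the summed skeletal muscle markers, 255, were below the control's 284. Fibroblast markers were 26730 against 12172, macrophage markers 7443 against 5050.1 and Sox10 4681 against 3771. The enzymes and transporters had a median of -0.74 on that array. Of 6 markers of plasma cells, which have much ER, 5 were above the control at 48 and 72 h, with medians of 0.32 and 0.10, among them Ighm at 131, 203, 505 and 257. The sixth, Sdc1, which other cell types also carry, read 1870.2, 1681, 1004 and 871. When the 72 h array was left out, the median of the mean difference over the off arrays was -0.41 for enzymes and transporters and -0.27 for the ER list, against -0.59 and -0.27 with all 3 off arrays.

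Other genes of the same pathways showed which neighbours shared these values. The cytosolic aminoacyl-tRNA synthetases, which charge tRNAs with amino acids and many of which ATF4 activates, were lower together. Of 19 measured, 18 were below the control at 48 h and at 72 h, against 45.5% and 43.7% of all genes. At these times 6 and 9 were 2-fold lower, against 1.04% and 1.63% of all genes. The synthetases' medians were 0.04, -0.89 and -0.89. Gars, for glycine, read 1038, 1004, 465 and 366, Farsb, a subunit for phenylalanine, read 169, 186, 55.0 and 52.9, and Aars, for alanine, read 861, 779, 340 and 382. Qars, for glutamine, was the exception, at 418, 459, 422 and 418.

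Other genes linked to ATF4 or to amino acid enzymes did not share them as a list. The medians of 13 other ATF4-linked genes were -0.01, -0.05 and 0.00, and those of 16 other amino acid enzymes 0.02, 0.01 and 0.01. Several genes of both lists were dim, and the scale understates the differences of dim genes. On the control Cbs read 56.2 and Slc7a3 33.6 among the former, and Prodh 48.3 and Mthfd2l 38.9 among the latter. Medians near 0 are therefore partly set by dim genes. Got1, which makes aspartate, read 535, 421, 293 and 249. Aldh1l2 read 311, 573, 427 and 321, above the control at 24 and 48 h by 0.82 and 0.42. Glul, which makes glutamine, read 118, 116, 162 and 460.2, highest on the 72 h array. The summed muscle, fat cell, fibroblast and macrophage markers were also highest there, and the part of any of these cells in the Glul value was not tested. The transporter Slc38a2 was above the control at 72 h, by 0.56, and Sqstm1 and Vegfa were below it, at -0.50 and -0.64.

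Of 20 other ER genes, 15 were below the control at 48 h and 12 at 72 h, against 45.5% and 43.7% of all genes. None of the 20 was 2-fold lower, and the list's medians were 0.07, -0.13 and -0.07. Hyou1, a chaperone that works with BiP, read 457, 553, 280 and 358, lowest at 48 h like BiP. Ero1a, an oxidase of the ER, read 356, 320.4, 208 and 169. The sensors and eIF2 factors, 12 genes, had medians of 0.00, -0.05 and -0.12. Ern1, which encodes the sensor IRE1, read 134, 149, 88.4 and 108. Eif2ak3, which encodes the kinase PERK, read 175, 194, 168 and 201. Mbtps1, another gene of this list, read 432, 516, 579 and 617, above the control at each time off. Heat shock genes of the cytosol and mitochondria had a median of -0.43 at 48 h and -0.16 at 72 h, with Hspd1 at 1576, 1664, 849 and 970.3.

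The ERK output genes, which report signalling below NRAS, had medians of -0.24, -1.53 and -2.08. At 24 h 7 of these 10 genes were below the control and 3 above, and none was 2-fold lower. The enzymes' median at 24 h was 0.09. With 1 array at each time, an order in time between these lists was not tested. MYC and a few of its targets were at 0.20, -0.66 and -0.59, and targets of NRF2, which shares Slc7a11 with ATF4, at -0.01, -0.08 and -0.17. All of these comparisons share the 1 control array.

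**Figure D4:**
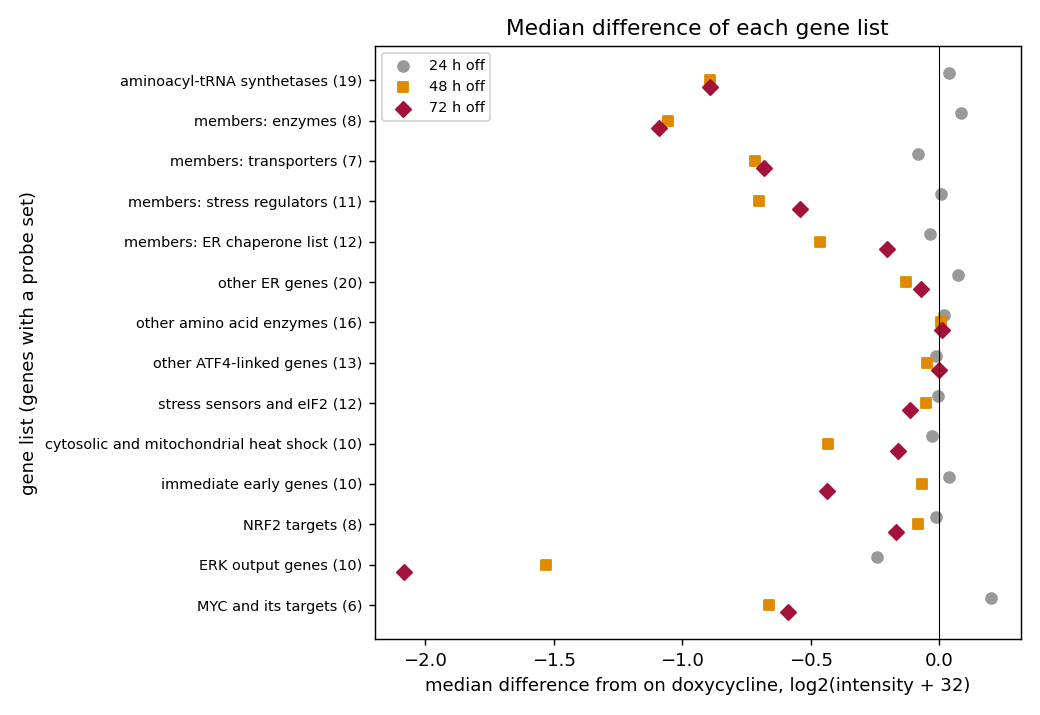
For each gene list (rows, with the number of genes measured) the points give the median difference of log2(intensity + 32) from the control tumour at 24, 48 and 72 h off doxycycline. The tRNA synthetases (-0.89 at 72 h) lie beside the enzymes (-1.09), the ER chaperone list (-0.20) and other ER genes (-0.07) lie nearer 0, and the ERK output genes (-2.08) lie furthest left.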

How the data were processed

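Each deposited value is a linear intensity of a probe set on 1 array, from 6.99 to 19969.98. Per the submitters' processing notes MAS5 and RMA were named, with no version or role; the sources used here do not say which made these values or how arrays were scaled. Per the labels' protocols, a frozen tumour piece of about 50 mg gave the RNA, of which 10 ug went into labelling with biotin. Of 45037 probe sets, 34945 had 1 gene symbol in the platform annotation, 932 had several and 9160 were not listed there; only the first kind was used, and a gene was represented by its probe set with the highest mean over the 4 arrays. No further normalization was applied. Differences were taken on log2(intensity + 32), with no p-value, and the calculation was checked on simulated data.

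Many deposited values were equal between arrays: 36.8% of genes at or above the level filter had a tie, and 2 of the 38 members did. These counts cover only the brightest probe set of each gene. Precision is limited by the number of arrays, 4. The members and the gene lists were chosen with earlier results of these data known. Members named with all 4 values were those 2-fold different at any time, the 3 with the greatest mean difference in each role, and Atf4, Xbp1 and Hspa5; of other lists, up to 3 genes with the greatest mean difference. Psat1, Mthfd1l, Aldh18a1, Slc3a2, Slc1a5, Atf5, Chac1, Ppp1r15a, Hsp90b1, Creld2, Herpud1, Qars, Eif2ak3 and the cell type markers were added after their values had been seen. Alternatives were quantile normalization, median centring, a pseudocount of 8 and one 4 times the main value, the mean over probe sets, omission of probe sets that may match several transcripts (_x_at and _s_at), a 1.5-fold threshold, other level filters and each off array left out. Omitting the pseudocount was an alternative added after the data were seen. Python 3.11.15, pandas 2.3.3, NumPy 2.4.6 and matplotlib 3.10.9 were used.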

Additional observations from a re-analysis of the deposited data

How the results depend on the processing

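Of 318 recomputed list values and counts, 286 moved by less than 0.2 or stayed within 1.5 times. Counts cannot reverse, and medians near 0 were not counted as reversed. At 24 h the ER list's median was -0.04 and became 0.03 with the mean over probe sets. No list median further from 0 reversed. Among 795 recomputed member values none reversed a 2-fold difference, and 81 moved by 0.2 or more. The cause of the changes was not tested. With a pseudocount 4 times as large the enzyme and transporter median was -0.68 at 72 h, -0.56 from 24 to 48 h and -0.58 from 24 to 72 h, with 2 members 2-fold lower at 48 h and 3 at 72 h; the ER list had 1 at 48 h; the regulators had medians of -0.41 at 48 h and -0.64 from 24 to 48 h, with 0 lower and 0 higher at 48 h and 1 lower at 72 h. With the mean over probe sets the enzyme and transporter median was -0.66 at 72 h and -0.64 from 24 to 72 h, its distance from the ER list at 72 h was -0.51, the regulators' median from 24 to 48 h was -0.64, and 1 ER gene at 48 h and 0 regulators at 48 and 72 h were 2-fold lower. At 1.5-fold, 12 and 11 enzymes and transporters, 5 and 4 ER genes and 6 and 5 regulators were lower at 48 and 72 h, and 2 regulators were higher at each. With a pseudocount of 8 or none, 2 regulators were 2-fold higher at 48 and at 72 h. Leaving out each off array gave medians of the mean difference from -0.82 to -0.41 for enzymes and transporters, from -0.33 to -0.15 for the ER list and from -0.74 to -0.26 for the regulators; the lowest were without the 24 h array.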
